A study of Mus musculus with 8 samples.

Results

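Heterotrimeric G proteins and the regulators of G protein signalling (RGS) were followed in mouse cerebellum in which a calcium pump was to be switched on in astrocytes. The set holds every row of the count table whose symbol names a G protein alpha subunit (Gna), beta subunit (Gnb1 to Gnb5), gamma subunit (Gng) or numbered RGS gene (Rgs), with 10 or more counts in at least 4 of the 8 libraries. Of 24060 rows, 52 matched the symbols and 43 met the count minimum: 12 alpha, 5 beta, 9 gamma and 17 RGS genes. All 43 passed the low-count filter of the test, which kept 15186 genes. The 9 rows below the minimum were Gna14, Gnat1, Gnat2, Gnat3, Gng8, Rgs1, Rgs13, Rgs18 and Rgs21, with at most 15 counts in any library, and Gnat3 had 0 counts in every library.

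A heterotrimer of alpha, beta and gamma subunits couples a cell surface receptor to its effectors. An activated receptor makes the alpha subunit exchange GDP for GTP, and alpha and the beta-gamma dimer then act separately, on adenylyl cyclases (Gs and Gi), phospholipase C beta and so calcium release (Gq), guanine nucleotide exchange factors (G12) or ion channels (beta-gamma). RGS proteins speed GTP hydrolysis by alpha and end the signal. In cerebellum, Gq signalling below metabotropic glutamate receptors is best known from Purkinje cells, and Gq-coupled receptors also raise calcium in astrocytes and Bergmann glia.

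RNA was sequenced from whole cerebellum, 1 mouse per library, with 4 bigenic and 4 control mice. Mice of both groups carried the CalExflox allele, which encodes a plasma membrane calcium pump silenced until Cre acts, and both received 1 intraperitoneal dose of tamoxifen (75 mg/kg) 5 days before collection. Bigenic mice also carried Aldh1l1-Cre/ERT2, a tamoxifen-dependent Cre whose Aldh1l1 regulatory sequence is active in astrocytes; control mice had no Cre, so an effect of the pump and an effect of Cre cannot be told apart. Age and sex are not in the labels. Expression of the pump itself was not analysed here. In bulk tissue, fewer cells of a type and less RNA per cell cannot be told apart.

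Counted reads ranged from 35208460 to 38293012 per library. Markers of the cerebellum were abundant in all 8 libraries: the summed level of 9 granule cell markers was 5600 to 7456 CPM (counts scaled to library size, with TMM factors) in bigenic and 5518 to 6694 CPM in control libraries, and that of 8 Purkinje cell markers 12520 to 14109 and 11243 to 13284 CPM. Choroid plexus markers, in contrast, differed with the groups: the summed level of 12 markers was 160.7 to 229.6 CPM in bigenic libraries and 664, 3832, 4865 and 292.5 CPM in control libraries 1 to 4, so results are also given without control libraries 2 and 3. The summed level of 9 microglia markers was 145.5 to 175.1 CPM in bigenic and 190.1 to 223.7 CPM in control libraries, that of 8 endothelial markers 207.8 to 229.8 and 238.7 to 269 CPM, and that of 10 astrocyte markers 12141 to 13877 and 9926 to 10376 CPM. Pericyte and smooth muscle markers overlapped, at 171.7 to 197.2 and 174.3 to 204 CPM. The sums also separated the groups for fibroblasts and meninges (160.3 to 182.1 CPM in bigenic, 187.1 to 224.9 in control), striatum and forebrain (262.6 to 281.2 and 199 to 218.8), oligodendrocyte precursors (106.1 to 127.6 and 88.42 to 104) and red blood cells (0.257 to 4.01 and 6.28 to 7.59, with Hba-a1, Hba-a2, Hbb-bs and Hbb-bt at 0 in every library). With the haemoglobin rows at 0, the red blood cell sum is the level of Alas2 alone and is a poor measure of red blood cells. The part of these cell types in the changes below was not tested, beyond the fits without control libraries 2 and 3 and with a choroid plexus gene as a covariate.

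Sequences from 2 families are shown because genes described below with a change belong to them. The first is the end of the coding sequence of the gamma subunits, where the lipid anchor is attached. Gamma subunits end in a cysteine codon followed by 3 more codons, and the last codon (in capitals) sets the lipid: leucine directs geranylgeranylation and serine farnesylation. The last 12 coding bases before the stop codon, 5′ to 3′, from the GENCODE M21 transcripts of the 9 measured gamma genes were as follows.
Gng2: tgcgccatcCTT
Gng3: tgtgcgctcCTC
Gng4: tgcaccatcCTC
Gng5: tgctcctttTTG
Gng7: tgcataattCTC
Gng10: tgtgctctaCTT
Gng11: tgtgtcattTCA
Gng12: tgcatcatcTTA
Gng13: tgcaccatcCTA
Of the 9, only Gng11 ended in a serine codon and the other 8 ended in a leucine codon.

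The second family is the alpha subunits, for which the 250 bases upstream of the annotated start are shown (RefSeq, GRCm38.p6, 5′ to 3′) for Gna13 and Gna12, the pair that makes up the G12 class, shown for the change of Gna13 described below, and for Gnai1 and Gnai3 of the Gi class. Capitals mark matches, on either strand and with none overlapping, to the E-box CACGTG, the TATA box TATAAA, the cAMP response element TGACGTCA, the palindromic glucocorticoid response element and the interferon-stimulated response element (a pair of GAAA repeats). A match is a description of the letters and not evidence of a bound site.
Gna13 (chr11:109362544-109362793, + strand): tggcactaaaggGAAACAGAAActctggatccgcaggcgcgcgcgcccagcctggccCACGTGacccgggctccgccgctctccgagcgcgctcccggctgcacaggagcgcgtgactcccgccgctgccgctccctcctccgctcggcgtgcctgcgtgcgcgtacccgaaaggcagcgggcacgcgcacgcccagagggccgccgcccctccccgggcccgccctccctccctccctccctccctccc
Gna12 (chr5:140830432-140830681, - strand): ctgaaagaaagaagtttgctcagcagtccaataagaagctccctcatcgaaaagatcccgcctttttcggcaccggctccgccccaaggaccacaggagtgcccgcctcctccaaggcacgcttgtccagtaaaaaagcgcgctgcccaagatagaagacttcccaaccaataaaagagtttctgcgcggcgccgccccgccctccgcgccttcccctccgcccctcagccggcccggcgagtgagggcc
Gnai1 (chr5:18360414-18360663, - strand): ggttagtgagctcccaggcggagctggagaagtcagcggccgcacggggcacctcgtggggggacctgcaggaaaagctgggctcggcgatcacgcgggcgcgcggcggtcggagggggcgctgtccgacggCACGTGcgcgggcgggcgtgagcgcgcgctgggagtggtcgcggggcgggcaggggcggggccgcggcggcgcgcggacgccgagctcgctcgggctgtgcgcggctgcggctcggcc
Gnai3 (chr3:108146153-108146402, - strand): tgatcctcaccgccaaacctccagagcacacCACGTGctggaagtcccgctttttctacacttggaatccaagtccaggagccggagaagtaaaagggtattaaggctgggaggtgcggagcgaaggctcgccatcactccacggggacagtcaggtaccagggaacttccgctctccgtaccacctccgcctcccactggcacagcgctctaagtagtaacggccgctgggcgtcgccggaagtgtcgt
RefSeq gave 46 promoter windows for 33 of the 43 genes, since some genes have several starts. The E-box stood in 4 of these 46 windows (Gna13, Gnai1, Gnai3 and Rgs7), or 8.7%, against 6.02% of all 32851 windows of this length. Gna13 also held the only interferon-stimulated element among the 46, a motif of 2.98% of all windows. The GC box GGGCGG, not capitalised here, stood in 24 of the 46 (52.2%) and in 32.7% of all windows. None of the 46 held the full cAMP or glucocorticoid element, which stood in 1.55% and 0.00913% of all windows.

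The levels of the genes were compared per length, in FPKM (fragments scaled by gene length and by library total), over all 8 libraries. Each class was led by 1 gene. Gnas, the stimulatory alpha subunit, averaged 164 FPKM and held 29.4 ± 1.42% of the summed alpha FPKM in bigenic and 33.4 ± 1.14% in control libraries (SD, n = 4). Gnai1 followed at 93.9 FPKM and held 20.2 ± 2.13% and 15.7 ± 0.507%. The ranges of Gnas, Gnai1 and Gnai2 over the 8 libraries did not overlap, whereas the 9 alpha genes from Gnai2 at 42.8 to Gnaz at 18.4 FPKM each overlapped the next in the order. Gna15 was lowest at 0.381 FPKM.

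Gng13 took most of the gamma signal, at 472 FPKM or 80.6 ± 1.03% of the class in bigenic and 77.3 ± 1.81% in control libraries (SD, n = 4), and the runner-up Gng2 averaged 35.8 FPKM. Among beta subunits Gnb1 led at 129.6 FPKM, and Gnb2 and Gnb5, at 76.3 and 72.2, overlapped. Rgs8, known for its expression in Purkinje cells, led the RGS genes at 208 FPKM, ahead of Rgs7 at 31.04, and held 62.2 ± 3.05% and 60.2 ± 5.44% of the summed RGS FPKM (SD, n = 4). Rgs22 and Rgs14 were the lowest, at 0.289 and 0.151 FPKM.

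**Figure D1:**
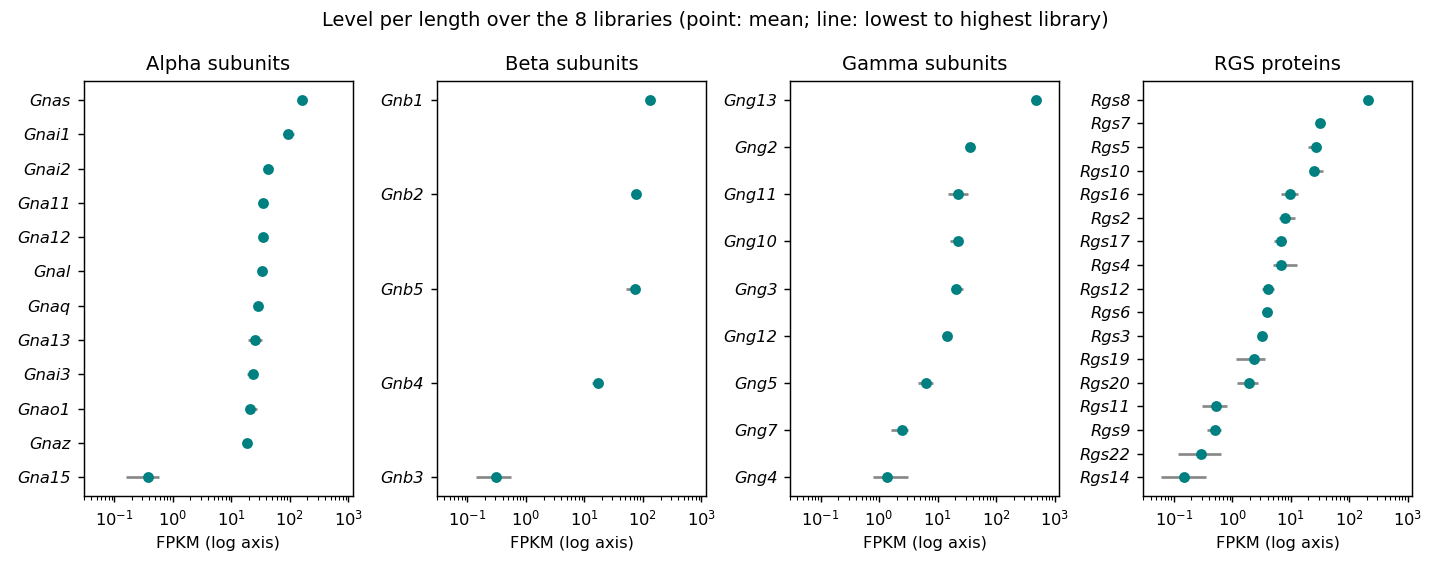
Level of the 43 genes per length. Points are the mean FPKM (log axis) over the 8 libraries and lines run from the lowest to the highest library; in each panel 1 gene stands above the rest, with Gng13 at 472 FPKM the highest of all.

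Between bigenic and control cerebellum, 9 of the 43 genes were higher and 7 were lower at an adjusted p under 0.05 (edgeR quasi-likelihood test on counts, Benjamini-Hochberg over all genes tested), 16 in all or 37.2%. Over all 15186 genes tested the same threshold called 44.3%, 21.4% higher and 22.9% lower, so the share called among these genes was near the background and is not a result about them. By class, 41.7% of alpha, 60% of beta, 33.3% of gamma and 29.4% of RGS genes were called. No count of a class or smaller class below is a result about that class. With library size alone as the scaling, or with upper-quartile factors, 7 were higher and 10 lower. The median log2 fold change of all genes was then -0.089 and -0.062, against -0.004 in the reported fit. Estimates under these 2 scalings, here and below, carry that offset, and the share of all genes called under them is not given here. The median log2 fold change was -0.011 among the 43 genes and -0.004 over all genes, and the median size, ignoring sign, was 0.24 against 0.295. The bigenic and control libraries did not overlap for 16 of the 43 genes, or 37.2%, against 40.7% of all genes. Of the 27 genes that did not pass, 20 had a log2 fold change between -0.2 and 0.2.

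**Figure D2:**
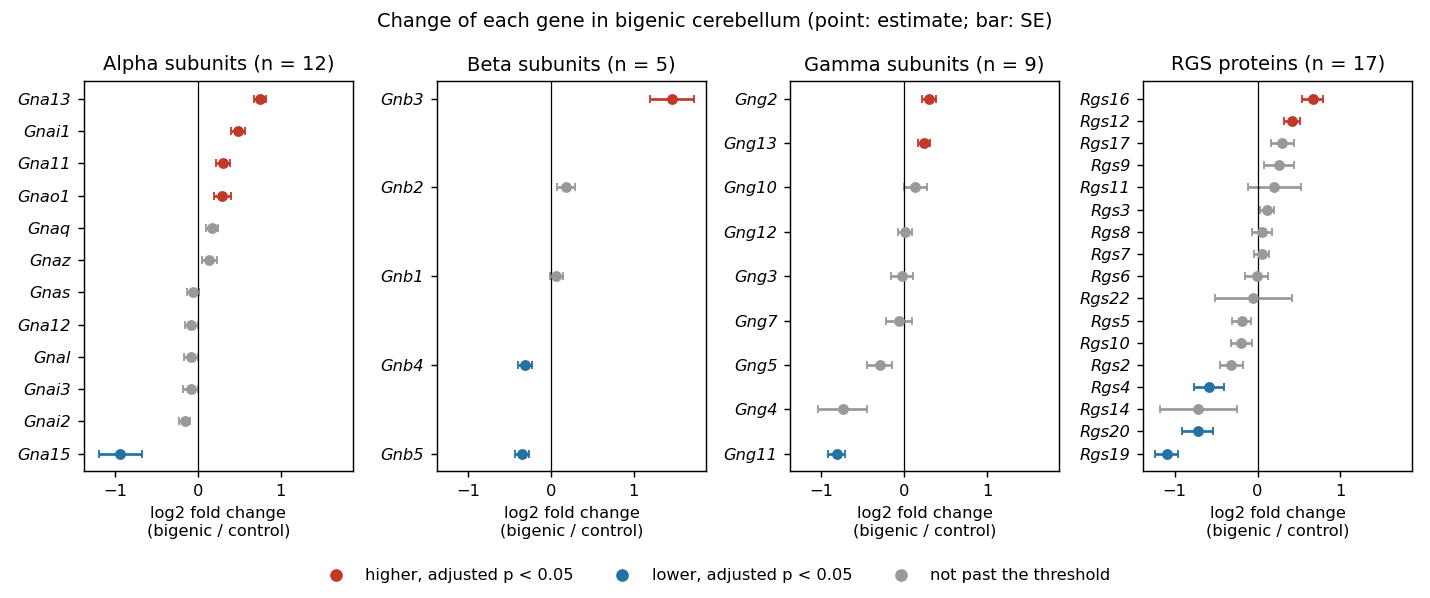
Log2 fold change of bigenic over control for each of the 43 genes, by class, with the standard error as a bar. Red and blue points passed the threshold; Gnb3 lies farthest right at 1.46 and Rgs19 farthest left at -1.09, and 27 grey points did not pass.

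Among alpha subunits, Gna13, Gnai1, Gna11 and Gnao1 rose and Gna15 fell, whereas 7 of 12 did not pass. Gna13, the G12-class subunit that activates guanine nucleotide exchange factors (chromosome 11, 109362831 to 109401369, plus strand), showed the smallest p of the 43 genes. It measured 207, 182, 213 and 209 CPM across bigenic libraries 1 to 4, compared with 121, 123, 123 and 115 CPM across control libraries 1 to 4. Every bigenic library lay above every control, and the rise was 1.69-fold (log2 fold change 0.75 ± 0.07, SE, adjusted p = 2.4e-05). Its class partner Gna12, which shares those effectors, was at 63.99 ± 3.42 CPM with Cre and 67.6 ± 4.26 CPM without (SD, n = 4) and did not pass (log2 fold change -0.08, 95% interval -0.24 to 0.08). The ratio of Gna13 to Gna12 counts was higher in all bigenic than in all control libraries, with a difference of 0.83 on the log2 scale. This ratio and those of 11 further pairs of paralogs, partners or neighbours were chosen after the values were seen and are given as a description, with no test.

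Gnai1, an inhibitory subunit that lowers cAMP (chromosome 5, 18265135 to 18360355, minus strand), measured 342, 298, 382 and 383 CPM across bigenic libraries 1 to 4, compared with 252, 242, 259.7 and 252 CPM across control libraries 1 to 4. The groups did not overlap, and the rise was 1.40-fold (log2 fold change 0.48 ± 0.09, SE, adjusted p = 0.001). The paralogs Gnai2 and Gnai3 did not pass, at -0.16 (95% interval -0.30 to -0.02) and -0.09 (-0.29 to 0.12) on the log2 scale. The Gnai1 count ratio was higher in bigenic libraries by 0.57 against Gnai3 and by 0.64 against Gnai2 on the log2 scale, without overlap. The values of Gnai2 were 83.9 to 89.4 CPM in bigenic and 95.3 to 104 CPM in control libraries, so its groups did not overlap although the test was not passed (adjusted p = 0.061). It passed as lower in 7 of 19 alternative settings, among them library size alone (-0.25, adjusted p = 0.0078). Gnao1, the most studied alpha subunit of neurons (chromosome 8, 93809966 to 93969388, plus strand), measured 176, 223, 166 and 159.9 CPM across bigenic libraries 1 to 4, compared with 161, 149, 143 and 139 CPM across control libraries 1 to 4. Bigenic library 2 stood highest and the groups overlapped; with all libraries it was higher (log2 fold change 0.29 ± 0.10, SE, adjusted p = 0.037). Without bigenic library 2 the estimate was 0.18 (adjusted p = 0.061), and Gnao1 missed the threshold in 13 of the 19 settings. Gnaz, an inhibitory relative, did not pass (0.14, 95% interval -0.06 to 0.33).

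In the Gq class, which drives phospholipase C beta, Gna11 (chromosome 10, 81528724 to 81545190, minus strand) measured 132, 117, 133 and 129 CPM across bigenic libraries 1 to 4, compared with 115, 102, 104 and 93.4 CPM across control libraries 1 to 4. The groups were separate, and the rise was 1.23-fold (log2 fold change 0.30 ± 0.08, SE, adjusted p = 0.0093). Its paralog Gnaq was at 155.0 to 189.6 CPM in bigenic and 143.4 to 153.0 CPM in control libraries, also without overlap, but did not pass (log2 fold change 0.17, adjusted p = 0.09); the ratio of Gna11 to Gnaq overlapped between groups (difference 0.14 on the log2 scale). Gna15, a Gq-class subunit known from blood cells that lies 4498 bases from Gna11 (chromosome 10, 81502306 to 81524225, minus strand), measured 0.656, 0.568, 0.329 and 0.473 CPM across bigenic libraries 1 to 4, compared with 1.10, 0.872, 1.08 and 0.847 CPM across control libraries 1 to 4, on 11 to 41 counts per library. All bigenic libraries were below all controls, and it fell by 0.94 ± 0.26 (SE) on the log2 scale (adjusted p = 0.013). The call was lost without control libraries 2 and 3 (-0.94, adjusted p = 0.084). The summed level of 11 leukocyte markers overlapped, at 66.03 to 101.1 CPM in bigenic and 68.84 to 80.01 CPM in control libraries. Of the 8 tested, 5 were lower and 0 higher, where 44.3% of all genes were called and 22.9% were lower. The part of leukocytes in the Gna15 change was not tested. The red blood cell sum given above was lower without overlap, but it is the level of Alas2 alone. The stimulatory subunits did not pass. Gnas measured 899.8, 1033, 1027 and 932 CPM across bigenic libraries 1 to 4, compared with 974, 1024, 1022 and 1045 CPM across control libraries 1 to 4, with overlapping groups and a 95% interval of -0.22 to 0.09 on the log2 scale. Gnal, the stimulatory subunit of olfactory and striatal neurons, was at 177.3 to 225.6 CPM in bigenic and 195.7 to 221.6 CPM in control libraries (log2 fold change -0.08, 95% interval -0.26 to 0.10), and its ratio to Gnas overlapped between groups (difference -0.02 on the log2 scale).

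Of the 5 beta subunits, Gnb3 rose and Gnb4 and Gnb5 fell. Gnb5, the atypical beta subunit that pairs with the R7 class of RGS proteins (chromosome 9, 75306288 to 75345876, plus strand), measured 182, 179.6, 143 and 164 CPM across bigenic libraries 1 to 4, compared with 214, 213, 219 and 208 CPM across control libraries 1 to 4. No bigenic library reached the lowest control, and it fell by 0.35 ± 0.08 (SE) on the log2 scale (adjusted p = 0.0047). Its 4 R7 partners did not pass: Rgs7 was at 0.05 (95% interval -0.14 to 0.25), Rgs6 at -0.01 (-0.30 to 0.28), Rgs9 at 0.26 (-0.14 to 0.66) and Rgs11 at 0.20 (-0.49 to 0.90) on the log2 scale. The Gnb5 to Rgs7 count ratio was lower, with a difference of -0.41 on the log2 scale and without overlap.

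Gnb4, a beta subunit that dimerises with gamma subunits (chromosome 3, 32580332 to 32616585, minus strand), measured 38.4, 41.9, 46.6 and 40.97 CPM across bigenic libraries 1 to 4, compared with 52.8, 50.6, 56.6 and 48.3 CPM across control libraries 1 to 4. The groups did not overlap, and the fall was 1.24-fold (log2 fold change -0.31 ± 0.08, SE, adjusted p = 0.011). Gnb3, the beta subunit of cone photoreceptors and taste cells (chromosome 6, 124834240 to 124840275, minus strand), measured 0.913, 0.703, 1.08 and 0.723 CPM across bigenic libraries 1 to 4, compared with 0.322, 0.359, 0.305 and 0.249 CPM across control libraries 1 to 4, a low level of 10 to 36 counts per library. It was 2.74-fold higher (log2 fold change 1.46 ± 0.27, SE, adjusted p = 0.0013), with no overlap. The summed level of 5 photoreceptor markers overlapped, at 0.8385 to 1.855 CPM in bigenic and 0.7223 to 0.9487 CPM in control libraries. Only 1 of them was high enough to test, and it was higher. Gnb1, the most abundant beta subunit, measured 374, 420.4, 458 and 414 CPM across bigenic libraries 1 to 4, compared with 381, 391, 415 and 408 CPM across control libraries 1 to 4. The groups overlapped and the 95% interval was -0.10 to 0.23 on the log2 scale. Relative to Gnb1, the counts of Gnb4 and Gnb5 differed by -0.375 and -0.42 on the log2 scale, each without overlap. Gnb2 did not pass either (0.18, adjusted p = 0.19); without control library 1 it was 0.28 (adjusted p = 0.037).

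Of the 9 gamma subunits, Gng11 fell, Gng2 and Gng13 rose, and 6 did not pass. Gng11, the gene with the serine end shown above (chromosome 6, 4003904 to 4008445, plus strand), measured 12.7, 14.9, 13.2 and 13.1 CPM across bigenic libraries 1 to 4, compared with 20.6, 22.7, 25.5 and 26.1 CPM across control libraries 1 to 4. The highest bigenic value lay below the lowest control, and the fall was 1.76-fold (log2 fold change -0.81 ± 0.10, SE, adjusted p = 0.00014). Its share of the summed gamma FPKM was 2.54 ± 0.191% in bigenic and 5.03 ± 0.438% in control libraries (SD, n = 4). Gng11 is known from vascular endothelium, and the endothelial markers given above were lower in bigenic libraries as a sum. Of the 8 markers 2 passed the threshold, both lower. Over all genes 44.3% were called, so this count is not a result about endothelium. A link to the fall of Gng11 was not tested. Gng2, a widespread gamma subunit (chromosome 14, 19872559 to 19977627, minus strand), measured 163, 154, 168 and 149 CPM across bigenic libraries 1 to 4, compared with 121, 118, 143 and 135 CPM across control libraries 1 to 4. The groups were separate by a small margin, with a rise of 1.23-fold (log2 fold change 0.30 ± 0.08, SE, adjusted p = 0.011). Gng13, the gamma subunit known from Purkinje and taste cells (chromosome 17, 25717171 to 25719406, plus strand), measured 201, 215, 228 and 205 CPM across bigenic libraries 1 to 4, compared with 179.7, 172, 194 and 174 CPM across control libraries 1 to 4. The rise was 1.18-fold (log2 fold change 0.24 ± 0.07, SE, adjusted p = 0.018), the smallest change that passed, and it missed the threshold in 9 of 19 settings, among them library size alone (0.15, adjusted p = 0.073).

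The other gamma subunits did not pass. Gng10, Gng12, Gng3 and Gng7 lay at 0.13, 0.01, -0.03 and -0.07 on the log2 scale; without bigenic library 2 Gng10 was 0.26 and passed (adjusted p = 0.049). Gng5 was at -0.30 (adjusted p = 0.13) and passed as lower in the 3 fits on FPKM. Gng4 had a larger estimate, -0.74 (adjusted p = 0.061), with 3.49 to 3.95 CPM in control libraries 1 to 3 and 8.87 CPM in control library 4 against 2.40 to 3.73 CPM in bigenic libraries. Without control library 4 the estimate for Gng4 was -0.31, and Gng4 passed as lower in 8 of the 19 settings.

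**Figure D3:**
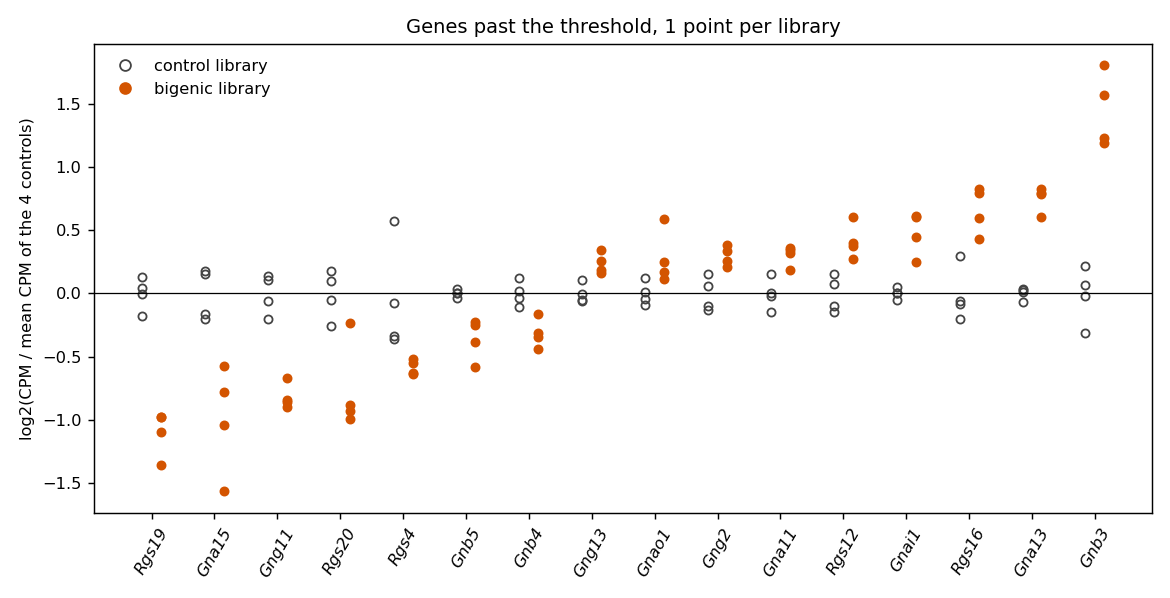
Level of the 16 genes past the threshold in each library, as log2 of the CPM over the mean of the 4 controls (open, control; filled, bigenic). The groups separate for 14 of the 16 genes; Gnao1 and Rgs20 overlap, and for Rgs4 control library 4 stands above the other 3 controls.

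Among the 17 RGS genes, Rgs16 and Rgs12 rose and Rgs19, Rgs20 and Rgs4 fell. The members of the RZ class, which act on Gi-type alpha subunits including Gnaz, comprised 2 genes that fell and 1 that did not pass. That is 66.7% called against 44.3% of all genes, on 3 genes. Rgs19 (chromosome 2, 181688419 to 181693977, minus strand) measured 3.31, 3.06, 2.54 and 3.31 CPM across bigenic libraries 1 to 4, compared with 6.72, 6.49, 5.77 and 7.12 CPM across control libraries 1 to 4. The groups were far apart, and the fall was 2.13-fold (log2 fold change -1.09 ± 0.14, SE, adjusted p = 0.00014). Rgs20 (chromosome 1, 4909576 to 5070285, minus strand) measured 3.31, 5.17, 3.20 and 3.06 CPM across bigenic libraries 1 to 4, compared with 5.10, 5.87, 6.87 and 6.53 CPM across control libraries 1 to 4. Bigenic library 2 stood above the other 3 and overlapped the controls; it fell (log2 fold change -0.72 ± 0.18, SE, adjusted p = 0.0082). Rgs17, the third and most abundant of the class, was at 61.9 ± 6.38 CPM with Cre and 50.3 ± 11.1 CPM without (SD, n = 4) and did not pass (log2 fold change 0.30, adjusted p = 0.1); without control library 4 it was 0.45 (adjusted p = 0.0088). The ratios of Rgs19 and of Rgs20 to Rgs17 were lower in all bigenic libraries, with differences of -1.415 and -1.07 on the log2 scale.

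The R4 class holds small RGS proteins that act on Gi and Gq subunits. Of its 6 measured genes 2 passed, or 33.3% against 44.3% of all genes. Rgs16 (chromosome 1, 153740349 to 153745468, plus strand), known as a rhythmic gene that can be induced by signalling, measured 30.9, 31.4, 23.97 and 26.8 CPM across bigenic libraries 1 to 4, compared with 21.9, 17.1, 15.5 and 16.7 CPM across control libraries 1 to 4. The lowest bigenic value exceeded the highest control, and the rise was 1.59-fold (log2 fold change 0.67 ± 0.13, SE, adjusted p = 0.0015). Its neighbour Rgs8, which ends 40025 bases before it on the same strand, measured 1047, 1394, 1334 and 1150 CPM across bigenic libraries 1 to 4, compared with 1035, 1345, 1354 and 1006 CPM across control libraries 1 to 4. Libraries of both groups spread widely, and the 95% interval of the Rgs8 change was -0.21 to 0.32 on the log2 scale. The Rgs16 to Rgs8 ratio differed by 0.61 on the log2 scale with overlap between groups.

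Rgs4 (chromosome 1, 169741477 to 169747642, minus strand), a brain RGS protein of Gq and Gi signalling, measured 16.5, 15.3, 16.2 and 15.3 CPM across bigenic libraries 1 to 4, compared with 18.4, 22.5, 18.7 and 35.3 CPM across control libraries 1 to 4. Bigenic libraries were close together below all controls, and control library 4 stood above the other controls; it fell (log2 fold change -0.58 ± 0.18, SE, adjusted p = 0.023). Without control library 4 the estimate was -0.33 and still passed (adjusted p = 0.033), and without bigenic library 3 or 4 it did not pass (adjusted p = 0.051 and 0.053). Rgs5, its neighbour and a gene of pericytes, did not pass (-0.19, 95% interval -0.43 to 0.05), and the Rgs4 to Rgs5 ratio overlapped between groups (difference -0.325 on the log2 scale). Rgs2, an inhibitor of Gq, was at -0.31 (adjusted p = 0.076) and passed as lower in 7 of the 19 settings, among them library size alone (-0.40, adjusted p = 0.033), whereas without control library 4 it was -0.18. Rgs5 passed as lower in 3 settings, among them without bigenic library 3 (-0.28, adjusted p = 0.041). Rgs3 was at 0.11 (adjusted p = 0.32).

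In the R12 class of larger or Gi-directed proteins, Rgs12, a multidomain scaffold (chromosome 5, 34949445 to 35039644, plus strand), measured 26.04, 23.9, 29.98 and 25.7 CPM across bigenic libraries 1 to 4, compared with 22.02, 20.7, 17.9 and 18.4 CPM across control libraries 1 to 4. The groups did not overlap, with a rise of 1.34-fold (log2 fold change 0.42 ± 0.10, SE, adjusted p = 0.0067). Rgs10, known from microglia, did not pass (-0.20, adjusted p = 0.22), although control library 4 at 29.7 CPM stood above the other 3 controls at 20.7 to 21.3 CPM. Rgs14 (-0.72) and the ungrouped Rgs22 (-0.05) had wide intervals, -1.73 to 0.30 and -1.07 to 0.97, at under 1 FPKM.

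The calls were repeated without control libraries 2 and 3, the libraries richest in choroid plexus transcripts. This lessens the choroid plexus difference but does not remove it. Control libraries 1 and 4, which stayed in, had marker sums of 664.2 and 292.5 CPM, against 160.7 to 229.6 CPM in bigenic libraries. With the 6 libraries left, 8 of the 43 genes passed, 4 higher and 4 lower, against 21.9% of all genes tested. Of the 16 genes called with all libraries, 7 kept the call in the same direction (Gna13, Gnai1, Gnb3, Gng11, Rgs4, Rgs16 and Rgs19), and the log2 fold changes of the 16 were between 82.1% and 131% of their full size. With Ttr, the transthyretin gene of choroid plexus, entered as a covariate, 10 of the 43 passed, against 19.3% of all genes, and 7 of the 16 kept the call (Gna11, Gna13, Gnai1, Gnb3, Gng11, Rgs4 and Rgs19), at 69.7% to 181% of the full size. The call of Gna13, Gnai1, Gnb3, Gng11 and Rgs19 held in all 19 alternative settings. Without control library 4 the Rgs4 estimate moved by over 1.5-fold, as given above, and without bigenic library 2 that of Gnao1 did. Exons of 8 of the 16 called genes (Gna13, Gnao1, Gnb5, Gng2, Gng13, Rgs12, Rgs16 and Rgs20) overlap a gene on the opposite strand. Whether the authors counted by strand is not given in the sources used here, so for these 8 genes reads from the shared bases may be misassigned or left out. The largest totals of shared exonic bases among the 8 were 897 for Gng2 with Gm48283 and 467 for Rgs12 with Gm43791. Gng13 shared 399 with the protein-coding Chtf18. These totals are not set against gene length, so a short gene may be more exposed. The levels given above carry the same limit, since 18 of the 43 genes share exonic bases with another gene. Gnas shared 1469 with Gm20721 and 988 with Nespas, and Gng10 shared 946 with Gm20503 on its own strand.

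**Figure D4:**
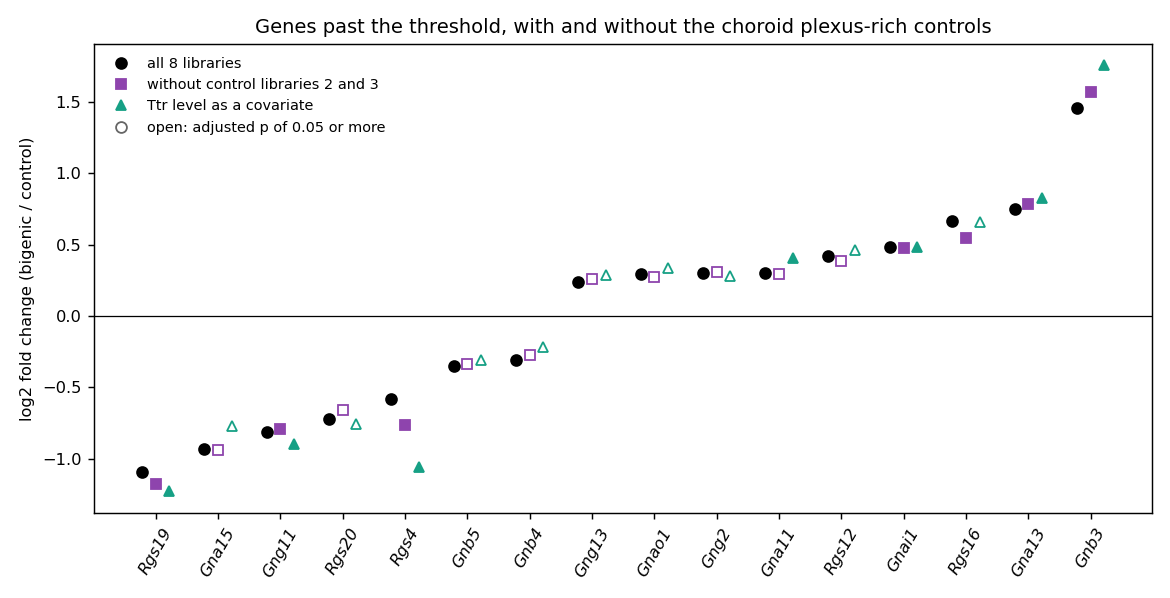
Log2 fold change of the 16 genes with all 8 libraries, without control libraries 2 and 3, and with Ttr as a covariate; open symbols did not pass the threshold. All 16 keep their direction, 7 keep the call without the 2 libraries, and Rgs4 moves most, from -0.58 to -1.06 with the covariate. The covariate fit leans on control library 4, the only control with Ttr as low as in bigenic libraries and the highest for Rgs4.

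Other genes of G protein signalling were counted from lists of receptors, receptor kinases, accessory proteins and effectors, chosen for their role. Of 90 genes tested, 10 were higher and 21 lower, or 34.4% in all, below the 44.3% called over all genes; without control libraries 2 and 3, 5 were higher and 18 lower, against 21.9% of all genes called. No share of a list below is a result about that list. Of 33 receptor genes, 4 rose and 9 fell (39.4% called, near the 44.3% of all genes; median log2 fold change -0.17 against -0.004), and 1 rose and 10 fell without those libraries. The adrenergic receptor Adra1a, which couples to Gq, rose 2.19-fold, from 7.72 ± 0.266 to 16.9 ± 1.38 CPM (means ± SD, 4 mice each), with a log2 fold change 1.13 ± 0.10, SE, adjusted p = 1.5e-05. The histamine receptor Hrh1, also coupled to Gq, fell by 0.98 ± 0.12 (SE), and the purinergic receptor P2ry13 of microglia and Gpr17 of differentiating oligodendrocyte precursors, both coupled to Gi, fell by 1.95 ± 0.25 and 1.91 ± 0.22 (SE) on the log2 scale. Of the markers given above, the microglia sum was lower and the oligodendrocyte precursor sum higher in bigenic libraries. The microglia list includes Cx3cr1 and P2ry12, which are also among the receptor genes counted here, so its sum is not independent of them. Of the 9 microglia markers 3 were lower and 0 higher. Of the 5 precursor markers 1 was higher and 0 lower. With 44.3% of all genes called, these counts are not results about the cell types.

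Receptor kinases, which phosphorylate active receptors, showed 3 of 6 genes higher and 0 lower, or 50% called against 44.3% of all genes; with library size alone 2 were higher and 1 lower, and without control libraries 2 and 3 the counts were 2 and 0. Adrbk2 (Grk3) was at 286 ± 20.5 CPM with Cre and 175 ± 8.32 CPM without (SD, n = 4), a rise of 1.63-fold (log2 fold change 0.71 ± 0.07, SE, adjusted p = 4.2e-05), and Adrbk1 (Grk2) rose by 0.27 ± 0.08 (SE; adjusted p = 0.017), a call lost in 8 of 19 settings. Grk1, the kinase of photoreceptors, had 23, 15, 46 and 32 counts in bigenic libraries 1 to 4 and 2, 2, 2 and 3 counts in control libraries 1 to 4. Its summed ratio was 13.9 (95% exact interval 7.08 to 31.2, counting error only), and the difference passed (adjusted p = 0.00015). Grk1 reached 10 counts only in the 4 bigenic libraries, so it entered the test through the group where it was high. Its call is therefore a description and no independent support. Grk6 did not pass (log2 fold change 0.21, adjusted p = 0.053).

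Accessory and chaperone genes comprised 2 higher and 6 lower of 24 tested, or 33.3% called against 44.3% of all genes. Gpsm1, a GoLoco protein that binds GDP-bound Gi alpha subunits, was at 175 ± 24.1 CPM with Cre and 87.3 ± 13.8 CPM without (SD, n = 4). It rose 2.01-fold (log2 fold change 1.00 ± 0.12, SE, adjusted p = 0.00011). The sorting nexins with an RGS-like domain, Snx25, Snx13 and Snx14, fell by 0.57, 0.46 and 0.38 on the log2 scale, each with an SE between 0.07 and 0.08.

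Among effectors, adenylyl cyclases comprised 1 higher and 2 lower of 9, or 33.3% called against 44.3% of all genes (Adcy9 at 0.23, Adcy8 at -0.55 and Adcy4 at -1.25 on the log2 scale), and Adcy9 lost its call in 14 of 19 settings. None of the 7 Gq effectors passed by edgeR or DESeq2, with 0 at an unadjusted p under 0.05 by edgeR. Without bigenic library 2, Plcb4 (-0.34, adjusted p = 0.0059) and Plcb2 (-1.59, adjusted p = 0.016) were lower, and without bigenic library 4 Plcb1 was higher (0.30, adjusted p = 0.023); Plcb2 also passed with the replicate block (-1.02, adjusted p = 0.042) and Plcb4 on log2(FPKM + 0.1) (-0.31, adjusted p = 0.049). None of the 3 guanine nucleotide exchange factors below G12 and G13 passed, with 1 at an unadjusted p under 0.05 (Arhgef1, 0.40, adjusted p = 0.055). Arhgef1 passed as higher in 5 of 19 settings, among them DESeq2 (0.41, adjusted p = 0.031). Arhgef11 passed as higher with the replicate block (0.20, adjusted p = 0.048), and Arhgef12 as lower without bigenic library 2 (-0.27, adjusted p = 0.0082). Of 8 beta-gamma effectors 4 fell and 0 rose, or 50% called against 44.3% of all genes. Without control libraries 2 and 3, 1 fell and 0 rose, with Kcnj9 at -0.82, Pik3cg at -0.85 and Prex1 at -0.63 on the log2 scale and past the threshold in none of these 3. Kcnj9, a channel subunit gated by beta-gamma, was at 76.1 ± 25.2 CPM with Cre and 132 ± 10.3 CPM without (SD, n = 4). It fell (log2 fold change -0.79 ± 0.21, SE, adjusted p = 0.012), and Prex1, a Rac exchange factor, was lower at -0.58 on the log2 scale (adjusted p = 0.026), a call lost in 8 of 19 settings. The phosphoinositide 3-kinase genes Pik3r6 and Pik3cg, known from leukocytes, were at -1.10 and -0.92 on the log2 scale and at under 2 CPM in both groups.

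**Figure D5:**
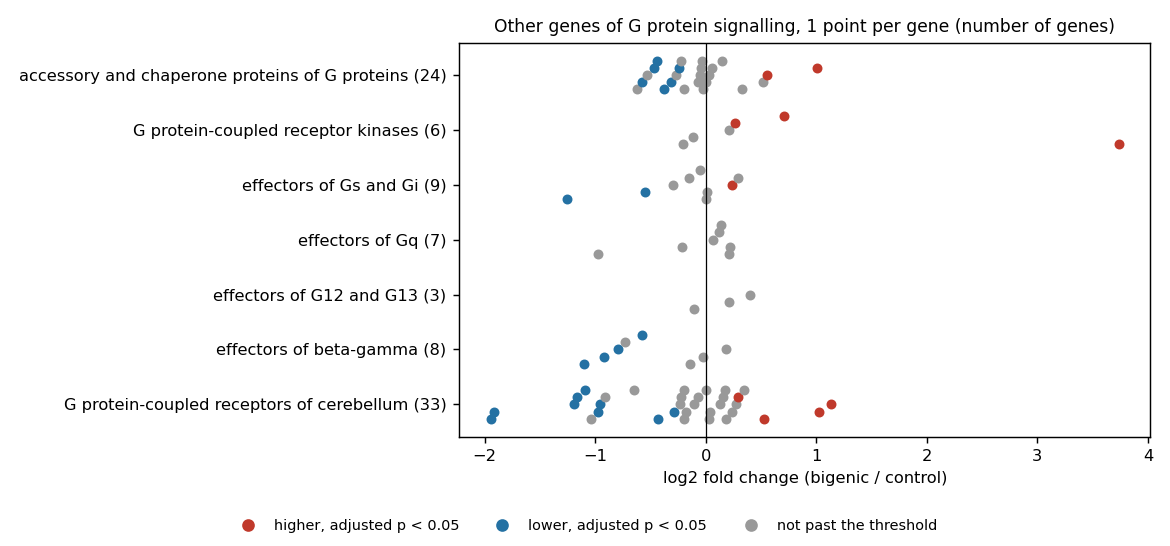
Log2 fold change of the 90 other genes of G protein signalling, by list, 1 point per gene. Red genes are higher and blue genes lower at an adjusted p under 0.05. Grk1, on 2 to 46 counts per library, lies farthest right and entered the test only through the bigenic libraries. The 4 called beta-gamma effectors all lie left of 0.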

How the data were processed

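The authors deposited whole-number read counts per gene, not normalised, and a second table of FPKM, for cerebellum of 8 mice. Per the submitters' processing notes, STAR, HTSeq and the mm10 build were used; versions are not given in the sources used here, and the labels disagree on extraction, library kit and instrument. The deposited FPKM were found to be these counts rescaled by gene length and library total, so they served for levels between genes and for alternatives only. Each sample's group came from its description.

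Counts were tested in R 4.3.3 with edgeR 4.0.16 (filterByExpr, TMM scaling, robust quasi-likelihood F test), bigenic against control, with Benjamini-Hochberg adjustment over the 15186 genes tested and a threshold of 0.05. Adjusted p-values are from this fit unless another test is named. Ratios of gene pairs are described without a test. Intervals cover 95%. Alternatives used limma 3.58.1 on log2(FPKM + 1) or log2(FPKM + 0.1), DESeq2 1.42.0, other scalings, no filter, a replicate block, omitted libraries and a Ttr covariate. The fit was tested on simulated counts. In these only a small part of the genes was changed, evenly in both directions, and no choroid plexus difference was added. That test therefore does not cover data in which 44.3% of genes are called. Positions are from GENCODE M21 (GRCm38, called mm10), counted from 1, and promoters from RefSeq.

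Values in all libraries are given for up to 6 genes of each class with the smallest p past the threshold and for the gene with the highest FPKM, and up to 4 genes with the smallest p are named from each list of other signalling genes. Of 93 such genes, Rgs9bp, Gngt1 and Kcnj5 were too low to test. The genes and lists were chosen with earlier results of these data known. Proteins are not analysed here. A list of cell type markers is not reported here.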

Additional observations from a re-analysis of the deposited data

Results flagged for a closer look

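Within each group of 4 libraries, a value was looked at again when its gap to the nearest other value was large for the range of the group (Dixon's 95% critical value). Chance gives about 1 in 20 groups, and 7 of 86 met it. Control library 4 accounted for 3 of them, all as the highest control: Gng4 was at 8.867 CPM against 3.492 to 3.948 CPM in the other controls, Rgs10 at 29.71 CPM against 20.7 to 21.33 CPM, and Gng7 at 10.24 CPM against 8.398 to 8.622 CPM. In bigenic library 2, Rgs20 was the highest at 5.166 CPM against 3.06 to 3.309 CPM in the other bigenic libraries, and Gng10 was the lowest at 18.83 CPM against 28.18 to 29.34 CPM. In bigenic library 1, Gnai2 was the lowest at 83.9 CPM against 88.56 to 89.38 CPM, and Rgs3 the highest at 27.67 CPM against 23.75 to 24.06 CPM.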

How the results depend on the processing

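Over 19 alternative settings, Gna13, Gnai1, Gnb3, Gng11 and Rgs19 kept their call, 11 of the 16 called genes lost it in at least 1, and 9 genes not called passed in at least 1. No called gene changed direction. Of the 43 genes, 9 were higher and 7 lower in the reported fit. Without control libraries 2 and 3, 4 were higher and 4 lower, 8 in all; with the Ttr covariate 4 were higher and 10 passed in all. On log2(FPKM + 1) and on log2(FPKM + 0.1), 11 were lower, and on log2(FPKM + 1) with no filter 5 were higher. Leaving out 1 library gave 14 to 19 called genes, 7 to 10 higher and 6 to 9 lower. Of the 90 other signalling genes, 10 higher and 31 in all became 16 higher with DESeq2, 5 higher without control libraries 2 and 3, and 4 higher and 20 in all with the Ttr covariate; leaving out 1 library gave 28 to 39 called, 7 to 13 higher and 19 to 27 lower. Over all genes tested, 44.3% were called in the reported fit, 21.9% without control libraries 2 and 3 and 19.3% with the Ttr covariate. For the other settings the share of all genes is not given here, so their counts are not results about these genes. The fits on fewer libraries also have less precision, and the cause of the other shifts was not tested.

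The mice share numbers between groups, but same-numbered libraries deviated together only in part (correlations of 0.329, 0.024, 0.166 and 0.063), so the numbers were not taken as pairs. With the replicate block, 19 of the 43 genes passed, 10 higher and 9 lower, and 41 of the 90, 16 higher and 25 lower. The share of all genes called with the block is not given here, so these counts are not a result about the genes. Every bigenic library but number 2 correlated best with the control of its own number. Gna15 and Gnb3 rest on 10 to 41 counts per library, so their fold changes are the least precise of the called genes.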
